A study of Mus musculus with 12 samples.

Results

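The genes described here are Kdr, Tek, Angpt2, Lyve1, Oit3, Stab2 and Bcl6b, a group of vascular endothelial genes that includes markers of the liver sinusoid and a ligand-receptor pair of the angiopoietin pathway. They were chosen by name, with earlier results of these data known. Each was read from the probe sets annotated with that 1 gene symbol, and each has a single such probe set. They make up 7 of the 19938 genes measured in mouse liver. Across 4 wild-type livers after lipopolysaccharide (LPS, a component of bacterial outer membranes), Kdr, Tek and Stab2 were lower and Lyve1, Angpt2 and Bcl6b higher than in untreated livers, and Oit3 did not pass the test. In LPS-treated mice carrying the S534A change in p65, Bcl6b alone of the 7 passed the test against LPS-treated wild type, and it was higher.

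Liver sinusoids are lined by a specialised, fenestrated endothelium that takes up waste molecules from blood through scavenger receptors and gives growth signals to the hepatocytes beside it. Endothelial cells respond to vascular endothelial growth factor (VEGF) through the receptor tyrosine kinase KDR, and to angiopoietins through the receptor tyrosine kinase TEK, also called TIE2. Angiopoietin-1 activates TEK and keeps vessels quiescent, whereas angiopoietin-2, released by activated endothelium, can oppose it. LPS acts through TLR4 and the transcription factor NF-kB, of which p65 (Rela) is a subunit, and S534A replaces a serine of p65 that can be phosphorylated with alanine. The study asked how that change alters the response to LPS.

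RNA from the livers of 12 male mice of the C57Bl6/J background was hybridised to whole-transcript GeneChip arrays of Affymetrix, with 4 livers in each group and an array for each. S534A LPS livers came from mice homozygous for a knock-in of S534A into the endogenous p65 gene, given LPS at 1 µg/kg. WT LPS livers came from wild-type mice given the same dose, and WT untreated livers from wild-type mice not given LPS. The knock-in was made in PTL1 embryonic stem cells, from which 2 clones were injected, and mice were backcrossed 5 times to C57Bl6/J. The knock-in is carried by all cells, not by a single cell type. Livers of S534A mice without LPS were not analysed here, and an effect of the genotype before LPS and an effect on the response cannot be told apart. The labels give neither the age of the mice nor the time after LPS, and the titles of untreated and LPS-treated samples follow different numbering, so handling and treatment cannot be told apart between them. Values are log2 signals normalised by the authors with RMA, and 1 unit is a doubling of signal. They compare a probe set between livers and not with other probe sets. In whole liver, fewer cells of a type and less RNA per cell cannot be told apart.

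Values over all probe sets ran from 3.43 to 14.48, and arrays of a group correlated at 0.983 to 0.996. Albumin (Alb), the main plasma protein made by hepatocytes, averaged 14.04 ± 0.03 in S534A LPS livers, 14.02 ± 0.03 in WT LPS livers and 14.00 ± 0.02 in WT untreated livers (SD, n = 4 each). Of 10 measured exocrine pancreas genes, the mean signal was 9.82 on S534A LPS replicate 3, 8.72 on WT LPS replicate 2 and 6.97 on WT LPS replicate 3, against 6.21 to 6.46 on the other LPS arrays and 5.93 to 6.33 on the untreated arrays. Those 3 are called the pancreas-positive arrays, and results are also given with them left out. The untreated arrays fell into pairs by clock genes. Arntl, a core clock activator, read 7.42 to 8.61 in S534A LPS livers and 7.37 to 8.83 in WT LPS livers. In WT untreated livers it read 9.03 and 9.08 on replicates 1 and 3, and 6.29 and 6.20 on replicates 2 and 4. Some arrays recur at the low end of the endothelial genes. WT LPS replicate 2 was the lowest of its group in 6 of the 7 genes, all but Bcl6b, and S534A LPS replicate 4 in 5 of the 7, namely Kdr, Tek, Lyve1, Oit3 and Stab2.

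Promoters of 3 of the 7 genes were found in the RefSeq table of GRCm38.p6, from 250 bases before to 50 bases after the annotated start. The matched genes, a growth factor receptor, the angiopoietin receptor and a scavenger receptor of sinusoids, are shown to set motif matches beside the responses described. Angpt2, Lyve1, Oit3 and Bcl6b were not matched. Each sequence is written 5′ to 3′ on the strand of the gene. The window of Kdr lies at chr5:75978406-75978705 on the minus strand, that of Tek at chr4:94739039-94739338 on the plus strand, and that of Stab2 at chr10:87007893-87008192 on the minus strand. Capitals mark GGAA (the core of ETS factor sites), GATAA (the core of GATA factor sites) and the NF-kB consensus, each searched on both strands.
Kdr: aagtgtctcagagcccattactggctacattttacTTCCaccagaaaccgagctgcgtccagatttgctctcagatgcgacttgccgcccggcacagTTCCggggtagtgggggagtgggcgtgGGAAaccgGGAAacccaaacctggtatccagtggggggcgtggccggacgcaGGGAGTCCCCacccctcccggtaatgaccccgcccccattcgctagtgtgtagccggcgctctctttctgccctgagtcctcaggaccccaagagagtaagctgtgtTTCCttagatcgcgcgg
Tek: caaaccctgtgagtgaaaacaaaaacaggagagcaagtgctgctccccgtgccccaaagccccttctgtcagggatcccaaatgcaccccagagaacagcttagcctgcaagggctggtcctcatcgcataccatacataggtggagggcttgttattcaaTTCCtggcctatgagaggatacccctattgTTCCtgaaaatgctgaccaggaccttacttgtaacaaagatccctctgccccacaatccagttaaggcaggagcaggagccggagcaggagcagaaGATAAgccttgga
Stab2: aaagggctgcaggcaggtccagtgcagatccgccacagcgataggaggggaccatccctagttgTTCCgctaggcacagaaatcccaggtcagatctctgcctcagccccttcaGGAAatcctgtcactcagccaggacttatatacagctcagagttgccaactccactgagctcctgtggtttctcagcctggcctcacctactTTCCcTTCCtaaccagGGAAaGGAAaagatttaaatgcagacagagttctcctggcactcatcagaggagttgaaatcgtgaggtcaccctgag
The Kdr window held 5 GGAA matches and 1 match to the NF-kB consensus, with no GATAA. The Tek window held 2 GGAA matches and 1 GATAA match, at its 3′ end, and no NF-kB match. In the Stab2 window there were 6 GGAA matches and neither of the other motifs. No match of one motif overlapped a match of another. Across 32851 promoters of the same length, 96.0% held GGAA, 25.4% held GATAA and 8.46% held the NF-kB consensus. These matches describe the letters and are not evidence of binding.

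The first comparison, WT LPS against WT untreated livers, shows how the genes responded to LPS in wild type. A gene was called at a limma adjusted p under 0.05 over all 19938 genes, and 6 of the 7 genes were called, 3 higher and 3 lower. Of all genes 9.34% were called higher, 15.6% lower and 25% in either direction. The same 6 genes had WT LPS and WT untreated arrays that did not overlap, which held for 24.6% of all genes, 9.78% higher and 14.9% lower. So the endothelial genes did not move as one: receptors and a scavenger receptor fell while a hyaluronan receptor, a ligand and a transcriptional repressor rose.

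Kdr, the main VEGF receptor of endothelium, read 8.10, 7.67, 8.16 and 8.12 in WT LPS livers, against 9.48, 9.44, 9.75 and 9.72 in WT untreated livers. Every LPS array lay more than 1 log2 unit below every untreated one, with replicate 2 the lowest of the LPS arrays. Kdr fell by 1.59 ± 0.13 (SE) on the log2 scale, or 3.00-fold (limma adjusted p = 1.59e-06). Tek, the angiopoietin receptor, read 7.39, 6.96, 7.39 and 7.27 in WT LPS livers, against 8.77, 8.36, 8.79 and 8.62 in WT untreated livers. The groups again stood apart, and the lowest untreated liver was nearly 1 unit above the highest LPS liver. Tek fell by 1.38 ± 0.12, or 2.60-fold (limma adjusted p = 2.1e-06).

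Angpt2, the angiopoietin released by activated endothelium, read 7.26, 6.74, 6.79 and 7.01 in WT LPS livers, against 6.11, 5.96, 6.09 and 5.87 in WT untreated livers. All LPS arrays were above all untreated arrays, and replicate 1 was the highest of the LPS arrays. The increase was 0.95 ± 0.14, or 1.93-fold (limma adjusted p = 0.000346). Ligand and receptor of the pathway thus changed in opposite directions in the same livers. Angpt1, the ligand that activates TEK, was 4.87 ± 0.05 in WT LPS livers and 4.89 ± 0.09 in WT untreated livers (SD, n = 4 each), in the low part of the signal range, and was not called (limma adjusted p = 0.818).

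Lyve1, a hyaluronan receptor of sinusoidal and lymphatic endothelium, read 10.29, 9.84, 10.14 and 10.16 in WT LPS livers, against 9.03, 8.71, 8.95 and 8.46 in WT untreated livers. The gap between the groups was 0.8 or more, and untreated replicates 1 and 3 were above replicates 2 and 4. Lyve1 rose by 1.32 ± 0.15, or 2.50-fold (limma adjusted p = 2.7e-05). Set against only the untreated pair with high Arntl, replicates 1 and 3, the difference was 1.12, and against the pair with low Arntl it was 1.52. Lyve1 and Angpt2 were also highest on replicate 1 of both LPS groups. Those arrays had the highest Arntl of their group, at 8.61 in S534A LPS and 8.83 in WT LPS livers. Bcl6b was highest there too, at 8.55 and 7.92, and so was the mean of 16 pan-endothelial genes, at 8.15 and 8.25. Kdr, Tek, Oit3 and Stab2 were not highest there in both groups. The split of untreated livers by pair was not particular to Lyve1. Replicates 1 and 3 were above replicates 2 and 4 for Tek (8.77 and 8.79 against 8.36 and 8.62). They were for Angpt2 too (6.11 and 6.09 against 5.96 and 5.87). Kdr, Oit3, Stab2 and Bcl6b did not split in this way. The Tek difference was -1.52 against the pair with high Arntl and -1.23 against the other pair. Among untreated livers Bcl6b was lowest on replicate 1, at 6.91. The part of the clock state in these values was not tested.

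Stab2, a scavenger receptor for hyaluronan that marks sinusoidal endothelium, read 9.26, 8.89, 9.13 and 9.09 in WT LPS livers, against 9.70, 9.55, 9.88 and 9.90 in WT untreated livers. No LPS array reached the lowest untreated array. Stab2 fell by 0.67 ± 0.10, or 1.59-fold (limma adjusted p = 0.000213), a smaller difference than that of Kdr or Tek. The hyaluronan receptors Lyve1 and Stab2 therefore went in opposite directions. Oit3, a zona pellucida domain protein used as a sinusoidal marker in the mouse, read 9.56, 9.24, 9.38 and 9.37 in WT LPS livers, against 9.64, 9.54, 9.66 and 9.66 in WT untreated livers. These groups overlapped, since LPS replicate 1 was above untreated replicate 2. The difference was -0.24 ± 0.09 (95% interval -0.44 to -0.04), which did not pass the adjusted threshold (limma adjusted p = 0.0772). It passed when S534A LPS replicate 4 (adjusted p = 0.0343) or WT LPS replicate 1 (-0.29, adjusted p = 0.036) was left out.

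Bcl6b, a transcriptional repressor related to BCL6 and found in endothelial cells of the mouse, read 7.92, 7.82, 7.63 and 7.64 in WT LPS livers, against 6.91, 7.05, 7.19 and 7.13 in WT untreated livers. All 4 LPS arrays were above the untreated ones. It rose by 0.68 ± 0.09, or 1.60-fold (limma adjusted p = 7.94e-05). With the 3 pancreas-positive arrays left out the same 6 genes were called, while fewer of all genes were called, as counted at the end. The differences of the 6 genes were then -1.49 for Kdr, -1.30 for Tek, 1.13 for Angpt2, 1.44 for Lyve1, -0.58 for Stab2 and 0.71 for Bcl6b.

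**Figure D1:**
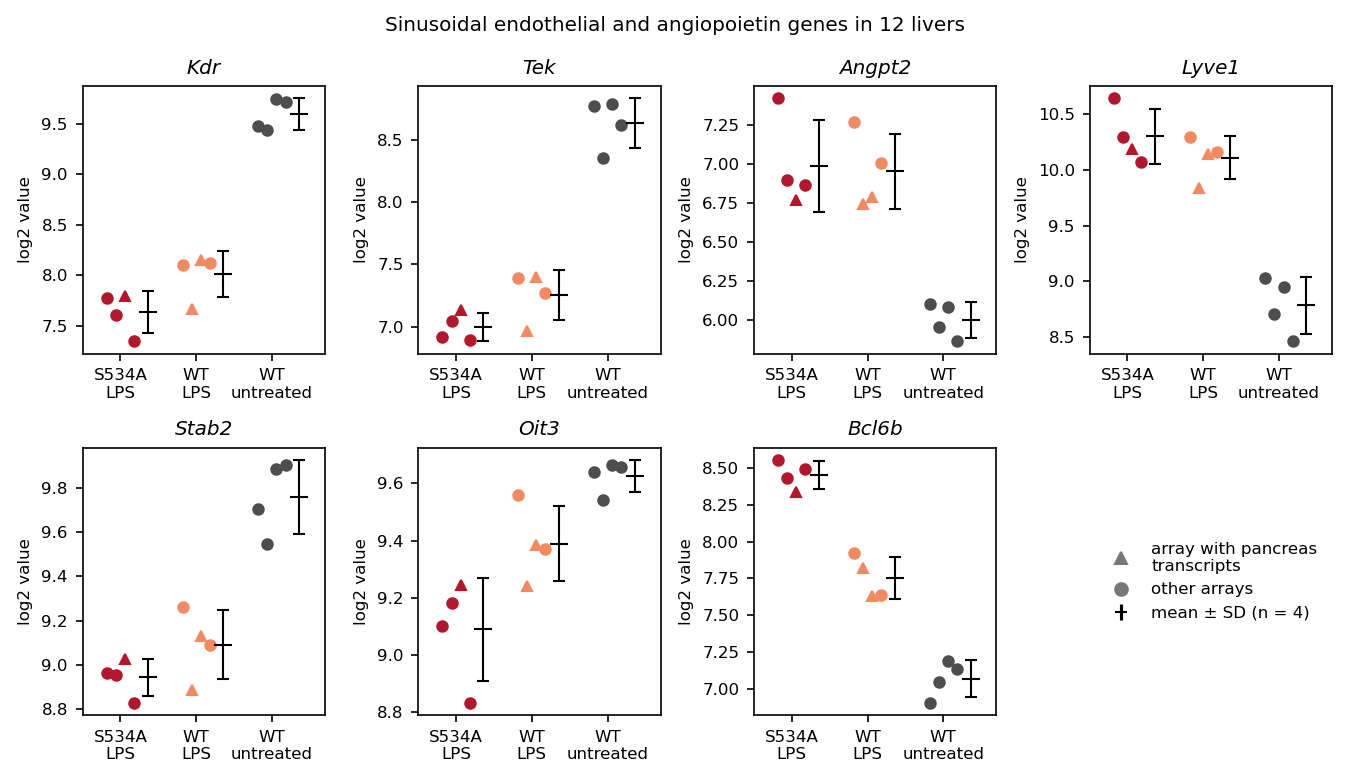
Log2 signal (vertical axis) of each of the 7 genes on every array, by group, with 1 point per array (triangles for the 3 pancreas-positive arrays) and bars for the mean and SD of 4 arrays. Kdr, Tek and Stab2 lie lower in both LPS groups than in WT untreated livers and Angpt2, Lyve1 and Bcl6b higher, and for Bcl6b the S534A LPS arrays lie above all WT LPS arrays.

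The second comparison, S534A LPS against WT LPS livers, addresses the p65 change in LPS-treated mice. Of the 7 genes 1 was called, Bcl6b, which was higher. This comparison called 0.166% of all genes higher and 0.00502% lower, 34 genes in all, so few genes of any kind passed. It shares the WT LPS arrays with the first comparison, and a low or high WT LPS array moves both. Bcl6b read 8.55, 8.43, 8.33 and 8.49 in S534A LPS livers, against 7.92, 7.82, 7.63 and 7.64 in WT LPS livers. The lowest S534A array stood above the highest WT LPS array. Bcl6b was 0.70 ± 0.09 higher in S534A LPS livers, or 1.62-fold (limma adjusted p = 0.00593, 95% interval 0.51 to 0.88). Groups that did not overlap in this direction were found for 3.25% of all genes, those in the other direction for 1.18%, and either for 4.43%. Leaving out single arrays gave 0.66 to 0.76, with limma adjusted p of 0.00247 to 0.0369. With the 3 pancreas-positive arrays left out the size was 0.71, but the call was lost (limma adjusted p = 0.178), and 1 gene of all was then called.

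Some neutrophil genes were higher in the same livers as Bcl6b. Of 8 neutrophil markers 2 were called, Retnlg (0.68 ± 0.10, limma adjusted p = 0.0158) and S100a9, a calcium-binding protein abundant in neutrophils (0.52 ± 0.09, limma adjusted p = 0.0385). Both were higher in S534A LPS than in WT LPS livers, where 0.166% of all genes were called higher. With the pancreas-positive arrays left out 0 of the 8 were called. The mean of the 8 markers was 7.12 to 7.43 in S534A LPS livers, 6.72 to 6.99 in WT LPS livers and 5.41 to 5.58 in WT untreated livers. Their part in the Bcl6b difference was not tested. Among 16 pan-endothelial genes none was called between S534A LPS and WT LPS livers, where 0.171% of all genes were called in either direction. Array means of that list were 7.98 to 8.15 in S534A LPS livers and 7.99 to 8.25 in WT LPS livers.

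Kdr, Tek, Oit3 and Stab2 had lower means in S534A LPS livers without passing the adjusted test. Kdr read 7.78, 7.61, 7.79 and 7.34 in S534A LPS livers, against the WT LPS values above, and its difference was -0.38 ± 0.13 (95% interval -0.66 to -0.10, limma adjusted p = 0.5). The groups overlapped through WT LPS replicate 2 at 7.67, and 3 of the 4 WT LPS arrays were above all S534A arrays. With arrays weighted by their quality, Kdr passed, at -0.48 (limma adjusted p = 0.0182). That fit called 476 of all genes in this comparison, against 34 without weights. Tek read 6.92, 7.05, 7.14 and 6.89 in S534A LPS livers, a difference of -0.26 ± 0.12 (95% interval -0.51 to -0.01, limma adjusted p = 0.838). Here too a single WT LPS array, replicate 2 at 6.96, lay within the S534A range. Oit3 read 9.10, 9.18, 9.24 and 8.83 in S534A LPS livers, with a difference of -0.30 ± 0.09 (95% interval -0.50 to -0.10, limma adjusted p = 0.391). The unadjusted limma p was 0.0115 for Kdr, 0.0445 for Tek and 0.00624 for Oit3. By that measure 308 of all genes (1.54%) were lower in S534A LPS livers and 840 (4.21%) higher.

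Stab2 read 8.96, 8.96, 9.03 and 8.83 in S534A LPS livers, and the groups overlapped through WT LPS replicate 2. Its difference was -0.15 ± 0.10 (95% interval -0.35 to 0.06, limma adjusted p = 1). Lyve1 read 10.65, 10.30, 10.19 and 10.07 in S534A LPS livers, of which the first and second were above all WT LPS arrays and the other two within their range. The difference was 0.19 ± 0.15 (95% interval -0.13 to 0.51, limma adjusted p = 1). Angpt2 read 7.42, 6.90, 6.77 and 6.86 in S534A LPS livers, with all but replicate 1 within the range of the WT LPS arrays. Its difference was 0.036 ± 0.14 (95% interval -0.28 to 0.35, limma adjusted p = 1), and its sign turned without S534A LPS replicate 1 (-0.11) or with the 3 pancreas-positive arrays left out (-0.075). These intervals still hold differences of 0.3 or more in at least 1 direction, so equal levels are not shown.

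S534A LPS livers against WT untreated livers gave calls for all 7 genes, 3 higher and 4 lower, with groups that did not overlap for any of them. Of all genes 13.8% stood apart in this way higher, 17.5% lower and 31.3% in either direction. The comparison called 11% of all genes higher, 16% lower and 26.9% in either direction, and it shares the untreated arrays with the first comparison. Kdr fell by 1.97 ± 0.13 (3.91-fold), Tek by 1.64 ± 0.12 (3.11-fold) and Stab2 by 0.82 ± 0.10 (1.76-fold). Oit3, not called in WT LPS livers, fell by 0.54 ± 0.09 or 1.45-fold in S534A LPS livers (limma adjusted p = 0.000653). Its change was not shown to differ between the genotypes, since the direct comparison above did not pass. Lyve1 rose by 1.52 ± 0.15 (2.86-fold), Bcl6b by 1.38 ± 0.09 (2.60-fold) and Angpt2 by 0.98 ± 0.14 (1.98-fold). The limma adjusted p of these 6 genes ran from 8.75e-08 for Bcl6b to 0.000204 for Angpt2.

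By group mean, Bcl6b ran S534A LPS, WT LPS, WT untreated from high to low, at 8.45 ± 0.09, 7.75 ± 0.14 and 7.07 ± 0.12 (SD, n = 4 each), and both steps passed the test. Kdr ran the other way, at 7.63 ± 0.21 in S534A LPS, 8.01 ± 0.23 in WT LPS and 9.60 ± 0.16 in WT untreated livers. The step between S534A LPS and WT LPS did not pass the test for Kdr, nor for Tek, Stab2, Lyve1 and Angpt2. For Oit3, at 9.09 ± 0.18, 9.39 ± 0.13 and 9.63 ± 0.06 in the same order, neither neighbouring pair passed the test while the outer pair did.

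**Figure D2:**
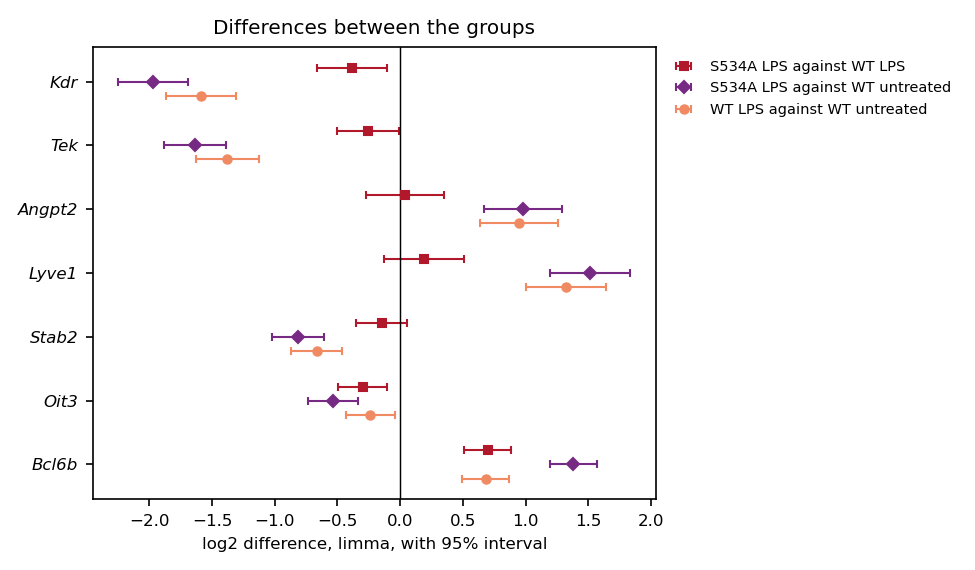
Log2 difference (horizontal axis) of each of the 7 genes in the 3 comparisons, with limma's 95% intervals. Between S534A LPS and WT LPS livers the interval of Bcl6b (0.51 to 0.88) is the one farthest from 0, and those of Angpt2, Lyve1 and Stab2 include 0.

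Lists of wider vascular genes were likewise drawn up with earlier results of these data known. Their counts in WT LPS against WT untreated livers stand beside the all-gene shares, 9.34% called higher, 15.6% lower and 25% in either direction. Of 18 other markers of sinusoidal endothelium, 13 fell and none rose in WT LPS against WT untreated livers, and their median difference was -0.55, against 0.02 over all genes. Adgrl4, an adhesion G protein-coupled receptor of endothelium, fell by 1.17 ± 0.14, and Ehd3, an endocytic recycling protein, by 1.01 ± 0.14. Wnt2, a growth signal to hepatocytes, fell by 0.90 ± 0.09 and Flt4, the receptor for VEGF-C and VEGF-D, by 0.84 ± 0.12. The limma adjusted p of these 4 ran from 7.06e-06 for Wnt2 to 0.000189 for Ehd3. Stab1, the paralogue of Stab2, had a difference of -0.22 ± 0.08 that did not pass (limma adjusted p = 0.052). With the 3 pancreas-positive arrays left out 10 of the 18 fell. Between S534A LPS and WT LPS livers none of the 18 was called, where 0.171% of all genes were called in either direction. Their median there was -0.09, against 0.01 over all genes. The smallest p there were those of Gpr182, an atypical chemokine receptor (-0.41 ± 0.16, limma adjusted p = 0.633), and Cd36, a fatty acid and thrombospondin receptor (0.38 ± 0.18, limma adjusted p = 0.857).

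In the angiopoietin-TIE pathway, 12 other genes were measured, of which 2 rose and 3 fell in WT LPS against WT untreated livers, with 25% of all genes called in either direction. Ptprb, the endothelial phosphatase that dephosphorylates TEK, fell by 1.17 ± 0.12 (limma adjusted p = 9.16e-06). Tie1, the partner receptor of TEK, fell by 0.42 ± 0.07 (limma adjusted p = 0.000934). Adam17, a sheddase of membrane proteins, rose by 0.49 ± 0.09 (limma adjusted p = 0.00195), while the adaptor Grb7 fell by 0.36 ± 0.12 and Foxo1, a transcription factor whose targets include Angpt2, rose by 0.50 ± 0.17. The last 2 were near the threshold (limma adjusted p = 0.0489 and 0.0493). In S534A LPS against WT untreated livers Grb7 stood at -0.46 ± 0.12 (limma adjusted p = 0.0133) and Foxo1 at 0.11 ± 0.17 (limma adjusted p = 0.692). Whole liver does not tell which cells gave these signals, and a link of Foxo1 to Angpt2 was not tested. With the 3 pancreas-positive arrays left out 3 of the 12 genes were called, and fewer of all genes were called there too. None of the 12 was called between S534A LPS and WT LPS livers, where 0.171% of all genes were called in either direction. Ptprb stood there at -0.32 ± 0.12 (limma adjusted p = 0.54) and Foxo1 at -0.39 ± 0.17 (limma adjusted p = 0.817).

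Of 9 VEGF ligands and receptors, 4 fell and none rose in WT LPS against WT untreated livers, with 15.6% of all genes lower, and 3 fell with the pancreas-positive arrays left out. Besides Flt4 these were the ligands Vegfb (-0.51 ± 0.09), Vegfd (-0.46 ± 0.08) and Vegfa (-0.42 ± 0.09), with limma adjusted p of 0.00103, 0.000705 and 0.00356. Flt1, the VEGF receptor that acts largely as a decoy, had a difference of 0.02 ± 0.09 (limma adjusted p = 0.922), unlike Kdr. None of the 9 was called between S534A LPS and WT LPS livers, where 0.171% of all genes were called in either direction.

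Pan-endothelial genes were split in WT LPS against WT untreated livers. Of 16, 9 fell and 4 rose, where 15.6% of all genes fell and 9.34% rose, and the median was -0.34, against 0.02 over all genes. With the pancreas-positive arrays left out 7 fell and 5 rose. Clec14a, an endothelial C-type lectin domain receptor, fell by 1.50 ± 0.12 and Eng, a TGF-beta co-receptor, by 0.59 ± 0.07, while Cd93, a relative of Clec14a, rose by 1.31 ± 0.10 (limma adjusted p = 8.84e-07). The junction proteins Pecam1 (-0.21 ± 0.08, limma adjusted p = 0.0713) and Cdh5 (0.14 ± 0.09, limma adjusted p = 0.282) were not called. Of 11 measured genes of continuous or capillarised vessels, 4 fell and none rose, namely Plvap, Ephb4, Efnb2 and Cd34. The count was 3 without the pancreas-positive arrays and 2 without untreated replicates 2 and 4, where 15.6% of all genes fell in the full comparison.

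**Figure D3:**
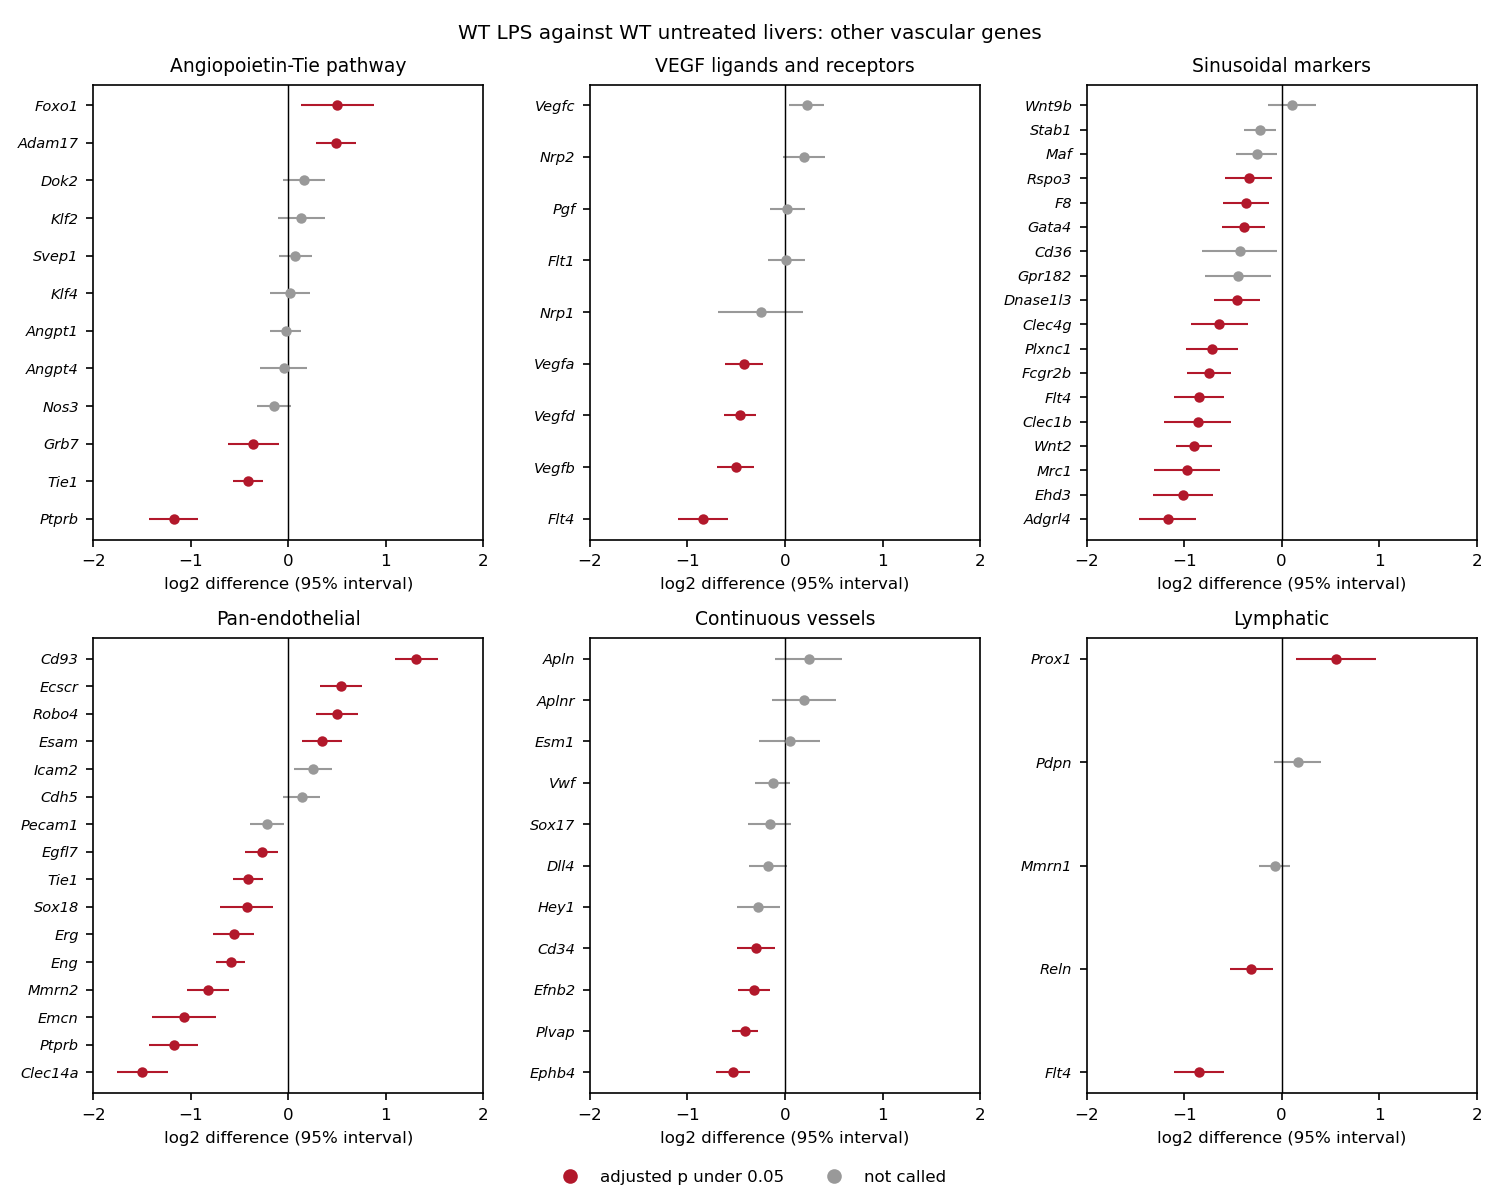
Log2 difference (horizontal axis) of each gene of 6 vascular lists in WT LPS against WT untreated livers, with limma's 95% intervals; red genes passed an adjusted p of 0.05 and grey ones did not. Of the other sinusoidal markers 13 of 18 lie left of 0 in red, while the pan-endothelial list holds called genes on both sides, from Clec14a at -1.50 to Cd93 at 1.31.

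Genes of other liver cells changed in the same livers. Of the 8 neutrophil markers 6 rose and none fell in WT LPS against WT untreated livers, where 9.34% of all genes rose. Their median difference was 1.79, against 0.02 over all genes. Of 7 measured hepatocyte genes 1 rose and 1 fell, near the all-gene share of 25%, and none was called without the pancreas-positive arrays. In WT LPS against WT untreated livers, 4 of 8 Kupffer cell genes fell, where 15.6% of all genes did, and Marco, a macrophage scavenger receptor, rose by 1.40 ± 0.14. Their array means were 8.48 to 9.09 in WT LPS livers and 8.92 to 9.32 in WT untreated livers. Of 8 stellate cell genes 4 fell and none rose, and 3 fell without the pancreas-positive arrays, with array means of 8.19 to 8.34 in WT LPS livers and 8.73 to 8.77 in WT untreated livers. Among 5 measured lymphatic genes, which bear on Lyve1, Prox1 rose (0.56 ± 0.19, limma adjusted p = 0.0492), a gene that hepatocytes also express, and Flt4 and Reln fell. Of all genes 9.34% rose and 15.6% fell. No lymphatic gene rose and 1 fell without the pancreas-positive arrays or without WT LPS replicate 2, and none rose without S534A LPS replicate 4. Mmrn1, a lymphatic marker, averaged 4.93 ± 0.09 in WT LPS livers and 5.01 ± 0.11 in WT untreated livers (SD, n = 4 each), low in the signal range. None of the Kupffer, stellate, lymphatic or hepatocyte genes was called between S534A LPS and WT LPS livers, where 0.171% of all genes were called. The part of these cells in the differences of the 7 genes, and of the vascular lists above, was not tested.

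To set each gene beside other endothelial genes, the mean of the 16 pan-endothelial genes was subtracted on each array. In WT LPS against WT untreated livers 6 of the 7 genes still differed by the exact two-sided permutation test, each at p = 0.0286, the smallest that 4 against 4 arrays allow. On this scale 37.2% of all genes had groups apart and higher, 5.09% apart and lower, and 42.3% either. Kdr was -0.12 ± 0.16 in WT LPS livers and 1.22 ± 0.14 in WT untreated livers (SD, n = 4 each), a difference of -1.34. Tek differed by -1.13, Stab2 by -0.42, Angpt2 by 1.20, Lyve1 by 1.57 and Bcl6b by 0.93. Oit3 was 1.26 ± 0.03 in WT LPS livers and 1.25 ± 0.06 in WT untreated livers (exact permutation p = 0.686), yet against the median of the list in place of the mean it was lower in WT LPS livers, at -0.37 (exact permutation p = 0.0286).

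In S534A LPS against WT LPS livers, Kdr, Oit3, Stab2 and Bcl6b did not overlap on this scale, each at an exact permutation p of 0.0286, with no adjustment for the 7 genes. For all genes the share was 4.37% higher, 0.507% lower and 4.88% either. Kdr was -0.46 ± 0.13 in S534A LPS livers and -0.12 ± 0.16 in WT LPS livers, a difference of -0.34. Oit3 was 1.00 ± 0.12 in S534A LPS livers and 1.26 ± 0.03 in WT LPS livers, a difference of -0.26. Stab2 was 0.86 ± 0.03 in S534A LPS livers and 0.96 ± 0.05 in WT LPS livers, a difference of -0.11, and Bcl6b differed by 0.74. Tek (-0.22, exact permutation p = 0.0857), Lyve1 (0.23, p = 0.0571) and Angpt2 (0.075, p = 0.686) did not pass. With the 3 pancreas-positive arrays left out the differences were -0.42 for Kdr, -0.31 for Oit3, -0.14 for Stab2 and 0.83 for Bcl6b, where the smallest exact p the arrays allow is 0.1.

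**Figure D4:**
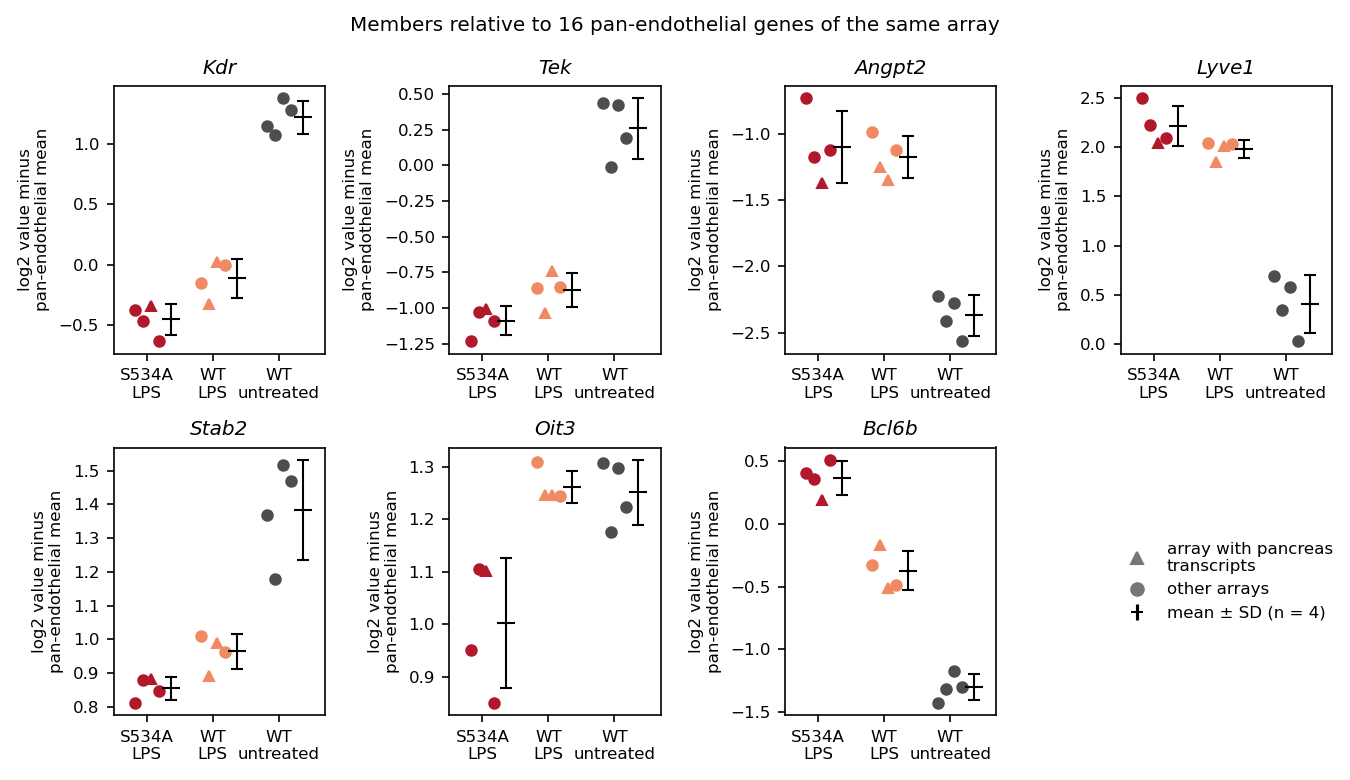
Log2 signal of each gene minus the mean of 16 pan-endothelial genes on the same array (vertical axis), by group, with 1 point per array (triangles for the 3 pancreas-positive arrays) and bars for the mean and SD of 4 arrays. Kdr averages -0.46 in S534A LPS, -0.12 in WT LPS and 1.22 in WT untreated livers, and Oit3 is close to 1.25 in both wild-type groups.

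The genes whose profiles over the 12 arrays were nearest to each of the 7 were found by the root mean square difference of centred log2 values. Predicted genes without a name, and genes that varied much less than the gene compared, were left out. Tek was the third nearest to Kdr (0.188), after Zmiz1 (0.132) and Hsd3b5 (0.171), while Kdr was not among the 3 nearest to Tek. Nearest to Tek were Cutal (0.144), P2ry4 (0.146) and Adgrl4 (0.148), the last also a sinusoidal marker named above. Angpt2 was nearest to Fscn1 (0.0910), Gzmb (0.115) and Rars (0.139), and Lyve1 to Wars (0.101), Tnip1 (0.113) and Glipr2 (0.138). Stab2 lay nearest to Yeats2 (0.0778), Lipa (0.0854) and Mkrn2 (0.0876). Oit3 lay nearest to Spryd4 (0.0985), Commd5 (0.0989) and Kit (0.101), and Bcl6b to Socs1 (0.145), Arg2 (0.152) and Fam83a (0.163). Likeness here is a description over 12 arrays that share their 3 groups.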

How the data were processed

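RNA from 12 mouse livers was measured on 1 array each. The deposited values are log2 signals, and RMA is the tool named, per the submitters' processing notes. RMA adjusts for background, sets arrays to 1 distribution and reduces probes to 1 value per probe set. Over the deposited probe sets the arrays did not share 1 median, with medians of 6.15 to 6.32. The sources used here do not give its version. No further normalisation or filter was applied. Of 35556 probe sets, 21789 carry 1 symbol in the platform annotation; 1621 with several and 12146 with none were left out. Where a gene had several probe sets, the brightest on average was taken, which left 19938 genes.

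Comparisons used lmFit and eBayes of limma 3.58.1 (R 4.3.3) on all 12 arrays in 3 groups, two-sided, with Benjamini-Hochberg adjustment over all genes and a threshold of 0.05, and the method was tested on simulated data. The limma p-values set group differences against the spread of arrays within groups. Nothing says how the livers were collected, so they cannot separate collection from treatment. For single values relative to the pan-endothelial mean, exact permutation tests over arrays were used; the planned adjustment over the 7 genes is not reported, because the genes and lists were chosen with earlier results of these data known. Named from each list were up to 4 genes with the smallest p in WT LPS against WT untreated livers and up to 2 in S534A LPS against WT LPS livers, with 8 fixed vascular genes. A list gene found under another current symbol was used under it. Lists share Ptprb, Tie1, Flt4 and Reln. Alternatives were leaving out arrays, array weights, a replicate block, a second quantile normalisation, other thresholds, a filter on dim genes and the list median. Depth does not apply to arrays, whose number limits the precision.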

Additional observations from a re-analysis of the deposited data

Results flagged for a closer look

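Kdr on WT LPS replicate 2 read 7.67, below the other 3 arrays of its group at 8.10 to 8.16. Its gap to the nearest of them was 0.883 of the group's range, above Dixon's 95% critical value for 4 samples. Of 24 groups of values tested this was the 1 flagged, and chance flags about 1 in 20.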

How the results depend on the processing

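In WT LPS against WT untreated livers, 6 or 7 of the 7 genes were called under every alternative run, since Oit3 passed at times: when S534A LPS replicate 4 was left out, when WT LPS replicate 1 was left out, and at an adjusted p under 0.1 (-0.24). Over single arrays left out its difference was -0.29 to -0.19. In S534A LPS against WT LPS livers, 2 of the 7 genes were called with array weights (Kdr at -0.48 joined Bcl6b) and 0 with the 3 pancreas-positive arrays left out (Bcl6b 0.71, limma adjusted p = 0.178); 1 was called under the others. Angpt2 there changed sign with 1 array left out, S534A LPS replicate 1 (-0.11) or replicates 2 (-0.033) and 3 (-0.018) of WT LPS, with a range of -0.11 to 0.14 over arrays left out, and without the pancreas-positive arrays (-0.075). The cause was not tested. Relative to the list median instead of the mean, Oit3 became -0.37 in WT LPS against WT untreated livers and Tek passed in S534A LPS against WT LPS livers at -0.22 (exact permutation p = 0.0286). Replicate numbers did not pair the livers: same-numbered arrays correlated at -0.27 to 0.21 in their deviations. With the number as a block, 6, 1 and 7 of the 7 genes were called in the 3 comparisons, and Bcl6b stood at 0.70 (limma adjusted p = 0.0465) between the LPS groups. All-gene calls there were 34, and 17 with the block, 476 with array weights, 1 without the pancreas-positive arrays, 9 to 121 with single arrays left out, 9 at an adjusted p under 0.01, 79 under 0.1, and 52 and 72 without either untreated clock pair, alternatives chosen after seeing the data. In WT LPS against WT untreated livers 4983 genes were called, 3227 without the pancreas-positive arrays and 3143 under 0.01. The alternatives other than single arrays left out, the block among them, gave 3143 to 6227 calls over all genes or probe sets run. In S534A LPS against WT untreated livers 5369 genes were called, and those alternatives gave 3590 to 6570. The neutrophil calls between the LPS groups, 2 of 8, were 0 without the pancreas-positive arrays or S534A LPS replicate 4 and 1 without WT LPS replicate 2. Calls in the angiopoietin-TIE list fell to 3, against 5, without the pancreas-positive arrays, WT LPS replicate 2, S534A LPS replicate 4 or untreated replicates 1 and 3. Calls among continuous-vessel genes were 2, against 4, without untreated replicates 2 and 4. All of this rests on 4 arrays a group.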
